A study of Mus musculus with 30 samples.

Results

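The effect of *Mtm1* loss on the transcriptome was compared between gastrocnemius and diaphragm. For each gene, the *Mtm1*-/y minus WT difference in the diaphragm was subtracted from the same difference in the gastrocnemius, within 1 model, and the result is called the difference between the muscles. A difference above 0 means that the genotype effect was more positive in the gastrocnemius, and one below 0 that it was more negative there. The comparison took every gastrocnemius and diaphragm library, 15 of the 30 in the series. There were 4 WT and 4 *Mtm1*-/y gastrocnemius libraries (labelled WT_Gas and Mtm1KO_Gas), 4 WT diaphragm libraries (WT_Dia) and 3 *Mtm1*-/y diaphragm libraries (Mtm1KO_Dia). The mice were males of 5 weeks on 1 inbred 129Pas background, the mutants carried the knock-out in the whole body, and WT littermates served as controls. The labels number the libraries, and the study's methods count as many mice per group as there are libraries. Whether same-numbered gastrocnemius and diaphragm libraries came from 1 mouse is not stated.

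*Mtm1* encodes myotubularin, a phosphatase that removes the 3-phosphate from phosphoinositides on endosomal membranes, and its loss causes X-linked myotubular myopathy, in which fibres are small with central nuclei and disorganized triads. The gastrocnemius is a hindlimb muscle made largely of fast fibres and is used in bouts. The diaphragm is a thin sheet of mixed fibres that contracts with every breath, lies against the liver and is covered by mesothelium. A muscle library holds RNA of fibres and of every other cell in the piece taken, and fewer cells of a type and less RNA per cell cannot be told apart in it.

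The genotype labels were checked with *Mtm1* itself, in CPM (counts scaled to library size with TMM factors). *Mtm1* stood at 21.3 to 22.9 CPM in WT and 4.43 to 5.92 in *Mtm1*-/y gastrocnemius, and at 16.6 to 25.1 in WT and 3.80 to 4.31 in *Mtm1*-/y diaphragm. Its log2 fold change was -2.08 ± 0.13 (SE) in the gastrocnemius and -2.28 ± 0.14 in the diaphragm. The difference between the muscles was 0.20, with a 95% interval of -0.19 to 0.59, and did not pass the test.

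Libraries held 24873817 to 44289343 counted reads. The diaphragm libraries varied more among themselves than the gastrocnemius libraries, with a common biological coefficient of variation of 0.394 against 0.171 when each muscle was fitted alone. The 21 hepatocyte markers summed to 22.8 to 168 CPM in the gastrocnemius. In the diaphragm they summed to 46940, 32030, 617.5 and 35410 CPM in WT replicates 1 to 4, and to 3953, 60100 and 1039 CPM in *Mtm1*-/y replicates 1, 2 and 4. WT replicate 3 was therefore the lowest of the WT diaphragm libraries and *Mtm1*-/y replicate 2 the highest of all. Over all genes tested, log2 CPM of *Mtm1*-/y diaphragm 2 correlated on average at 0.962 with the WT and 0.928 with the other *Mtm1*-/y diaphragm libraries. With liver-enriched genes left out, these values were 0.980 and 0.971. For WT diaphragm 3 they were 0.923 with the other WT and 0.949 with the *Mtm1*-/y libraries, and 0.976 and 0.974 with liver-enriched genes left out. Skeletal muscle fibre markers (*Acta1*, *Ckm*, *Ttn* and others) were abundant in all 15 libraries, at 60770 to 242500 summed CPM. They summed to 205500 to 242500 CPM in WT and 134200 to 143600 CPM in *Mtm1*-/y gastrocnemius, without overlap. In the diaphragm the sums overlapped, at 60770 to 95870 CPM in WT and 64460 to 78230 CPM in *Mtm1*-/y libraries. The part of fibre content in the differences between the muscles was not tested.

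**Figure D1:**
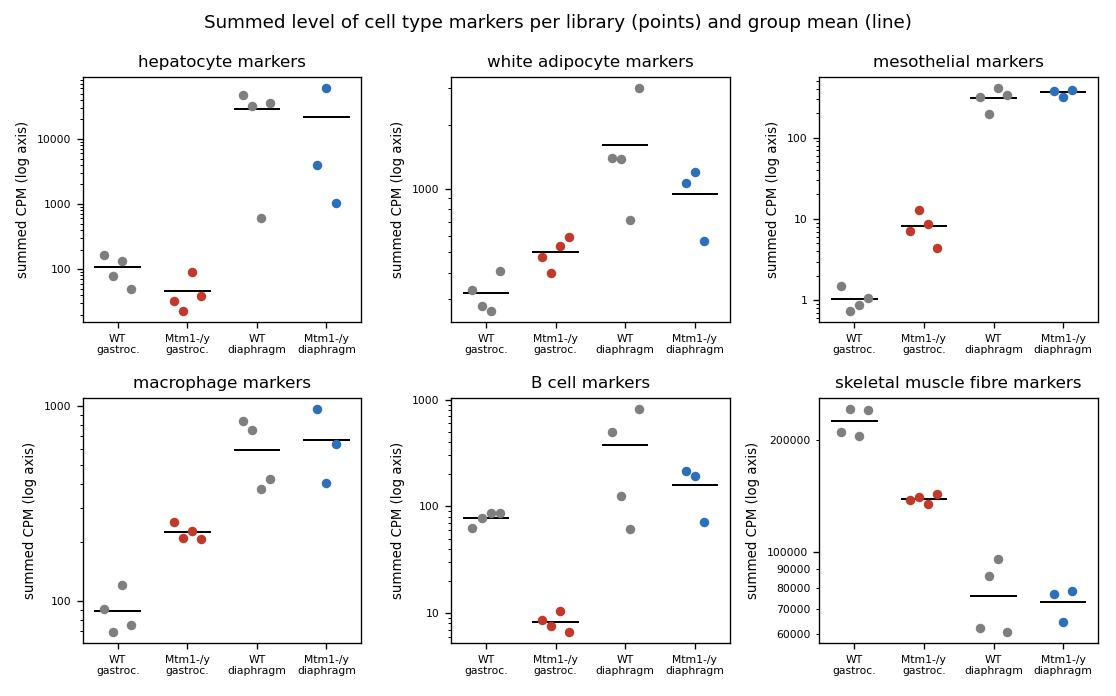
Summed CPM of 6 lists of cell type markers in each of the 15 libraries (points, log axis) with the group mean (line), for WT and *Mtm1*-/y gastrocnemius and diaphragm. Hepatocyte markers reached 60100 CPM in 1 *Mtm1*-/y diaphragm library and stayed at or under 168 CPM in the gastrocnemius.

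Of 17509 genes tested, 41 differed between the muscles, with an adjusted p below 0.05 and a log2 difference larger than 1 in size. The effect was more positive in the gastrocnemius for 26 genes (0.148% of the genes tested) and more negative there for 15 (0.0857%). At the adjusted p alone the numbers were 29 (0.166%) and 20 (0.114%), and 2249 genes had an unadjusted p under 0.05. In the same fit, 1004 genes were called in the gastrocnemius (761 up, 243 down) and 172 in the diaphragm (124 up, 48 down). With the diaphragm libraries fitted alone, only 2 genes were called in the diaphragm. The fit of both muscles takes 1 spread per gene from all 15 libraries. Its median SE was 0.188 in the gastrocnemius and 0.204 in the diaphragm, although the diaphragm libraries varied more. Every later statement that a gene rose, fell or passed in the diaphragm is from that fit and carries this limit. Among the 41 genes, 34 also passed the adjusted p in the gastrocnemius and 10 in the diaphragm, 4 of them in both. The effects had the same sign in 20 genes, larger in the gastrocnemius for 17 and in the diaphragm for 3, and opposite signs in 21. Only 8 of these 21 had an unadjusted p under 0.05 in each muscle. Of 1066 liver-enriched genes tested, none was among the 41, beside shares of 0.148% and 0.0857% over all genes. The summed hepatocyte markers ran from 617.5 to 46940 CPM within WT and from 1039 to 60100 CPM within *Mtm1*-/y diaphragm. Against such a spread a call is hard to reach, so this absence says little about liver content.

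**Figure D2:**
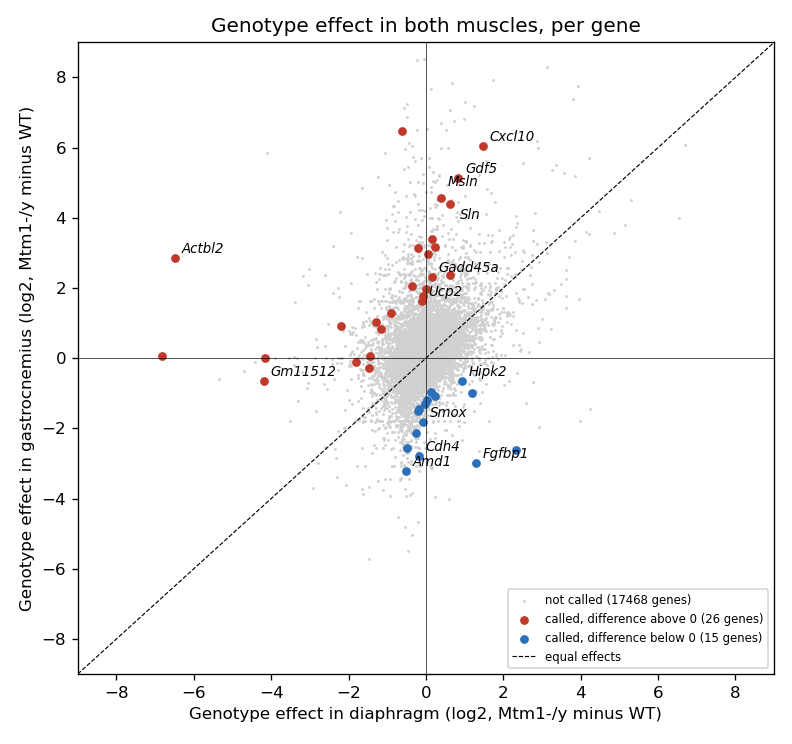
Genotype effect in the diaphragm (x axis) against the gastrocnemius (y axis), in log2 units, with 1 point per gene for the 17509 genes tested and a dashed line where the effects are equal. The 41 genes called for the difference lie away from that line, 26 above it and 15 below it.

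The number of genes called moved with single libraries. Leaving out 1 library at a time gave 11, 5, 15 and 9 genes without WT gastrocnemius 1 to 4, 10, 17, 36 and 25 without *Mtm1*-/y gastrocnemius 1 to 4, 8, 13, 89 and 5 without WT diaphragm 1 to 4, and 15, 44 and 5 without *Mtm1*-/y diaphragm 1, 2 and 4. When WT diaphragm 3 was left out, 40 of the 41 genes were among the 89 called. Without *Mtm1*-/y diaphragm 2, only 25 of the 41 were among the 44 called. A fit of all 30 libraries of the series called 59 genes, 30 of them shared with the 41. With *Mtm1*-/y diaphragm 2 and WT diaphragm 3 both left out, a choice made after their low sample weights were seen, 1288 genes were called, 1091 above and 197 below 0, and all 41 were among them. DESeq2 called 204 genes, 38 of them shared with the 41, and limma voom with sample quality weights called 401, 39 of them shared. The weights that voom gave these 2 libraries were 0.277 and 0.231, against 0.498 to 1.87 for the other 13. With the mean log2 CPM of the hepatocyte markers as a covariate, 195 genes were called, 41 of them shared. Of the 49 genes at the adjusted p, *Amd1*, *Smox*, *Mfsd7a* and the pseudogene *Gm11512* passed in all 15 fits with 1 library left out. *Calm3* and *Gm43531* were lost in 1 of them, without *Mtm1*-/y diaphragm 4 (adjusted p of 0.057 and 0.056), and the other 43 were lost in 2 or more.

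**Figure D3:**
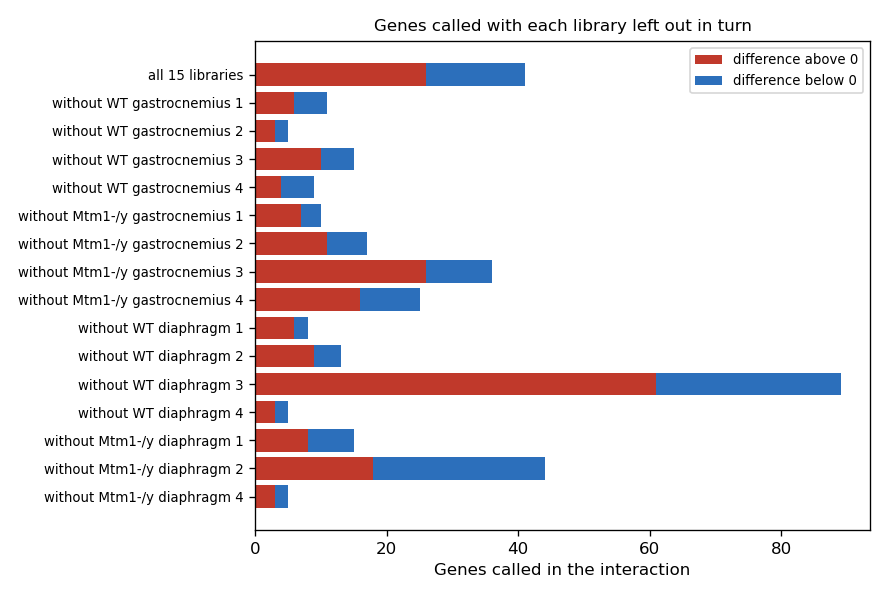
Number of genes called for the difference between the muscles (x axis) with all 15 libraries and with each library left out in turn (y axis), split by direction. The number ran from 5 to 89, and was highest without WT diaphragm replicate 3.

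Of 12 polyamine enzymes and regulators, *Amd1* and *Smox* were the 2 that passed the test of the difference, both more negative in the gastrocnemius (background 0.114%). Polyamines are made from ornithine, with decarboxylated S-adenosylmethionine as the donor of aminopropyl groups. *Amd1* (chr10:40287458-40302186, minus strand, mm10) encodes the decarboxylase that makes this donor, and *Smox* (chr2:131491496-131525922, plus strand) encodes spermine oxidase, which turns spermine back into spermidine. *Amd1* stood at 173, 211, 224 and 145 CPM in WT gastrocnemius and at 17.8, 22.4, 23.9 and 17.2 CPM in *Mtm1*-/y gastrocnemius. In the diaphragm it stood at 5.70, 11.1, 7.95 and 6.19 CPM in WT and at 5.53, 6.05 and 4.77 CPM in *Mtm1*-/y libraries. The genotypes did not overlap in the gastrocnemius, as held for 28.1% of all genes tested there. The genotypes overlapped in the diaphragm, where both lay below the mutant gastrocnemius. The log2 fold change was -3.21 ± 0.22 (SE) in the gastrocnemius and -0.51 ± 0.22 in the diaphragm, a difference of -2.70 ± 0.30 (adjusted p = 0.00434, and 0.000949 to 0.0168 with 1 library left out). *Smox* stood at 242, 284, 255 and 242 CPM in WT and at 62.3, 67.8, 61.1 and 96.7 CPM in *Mtm1*-/y gastrocnemius. Diaphragm levels of *Smox* were 10.3, 13.8, 11.5 and 11.5 CPM in WT and 12.5, 10.1 and 10.9 CPM in *Mtm1*-/y libraries, so that the genotypes overlapped there. Its difference was -1.76 ± 0.21 (adjusted p = 0.00445, and 0.000343 to 0.0198 with 1 library left out), from -1.83 in the gastrocnemius and -0.07 in the diaphragm.

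Other members of the polyamine list did not pass the test of the difference. *Amd2*, a near copy of *Amd1*, went from 1.36 to 3.46 CPM in WT to 0.187 to 0.607 CPM in *Mtm1*-/y gastrocnemius. This fall passed the test there (adjusted p = 0.00103), and the difference of *Amd2* was -2.47 (adjusted p = 0.17, and 0.0489 by DESeq2). The study counted uniquely aligned reads only, so reads that fit both copies equally well were left out. *Odc1*, the ornithine decarboxylase that starts the pathway, had a difference of -0.79 (95% interval -1.46 to -0.12, adjusted p = 0.324), and *Sms*, the spermine synthase, one of -0.16 (-0.90 to 0.58). Over the list, 1 member rose and 3 fell in the gastrocnemius (background 8.54% up and 8.97% down). None passed in the diaphragm (background 0.868% up and 0.44% down). The median difference of the list was -0.115, against 0.03 over all genes tested. Without the filter on low counts, *Amd1* and *Smox* are still among the genes called.

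**Figure D4:**
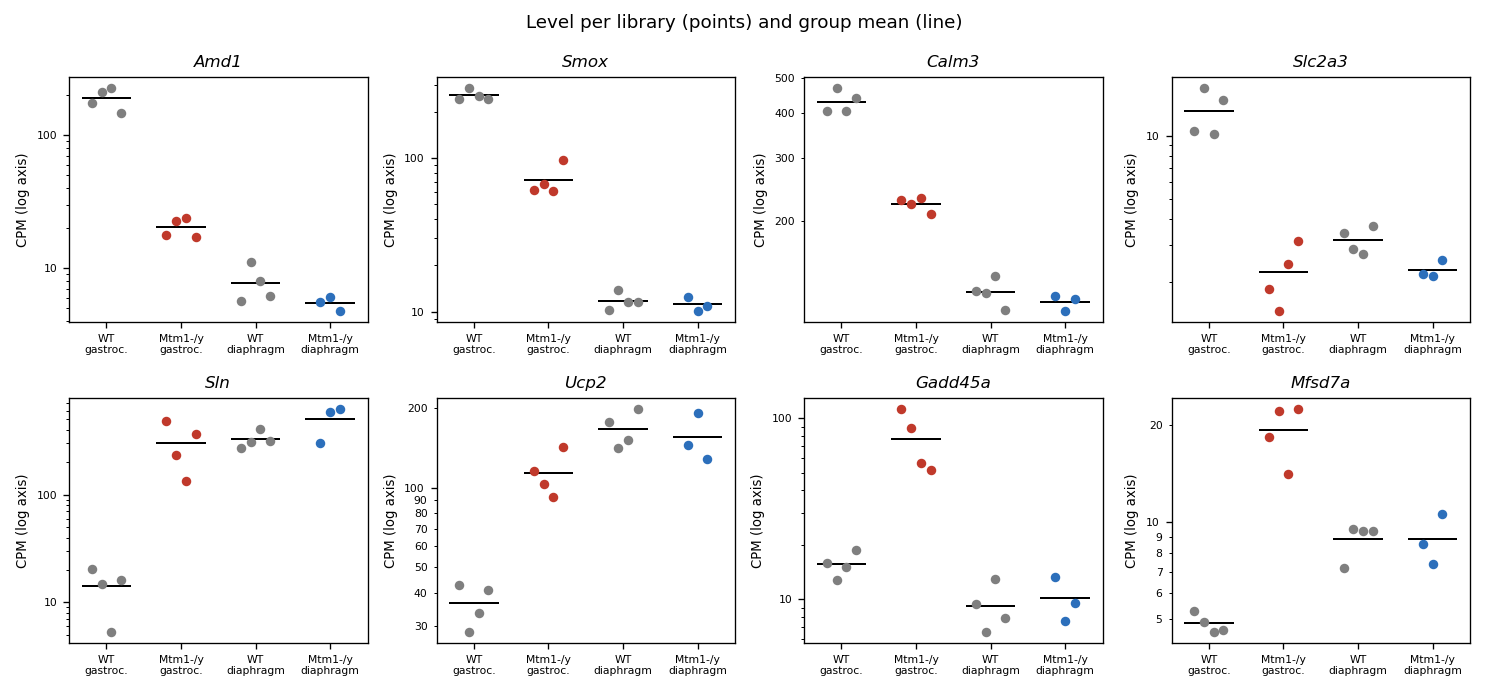
CPM per library (points, log axis) and group mean (line) for 8 genes in WT and *Mtm1*-/y gastrocnemius and diaphragm. *Amd1*, *Smox*, *Calm3* and *Slc2a3* were lower in *Mtm1*-/y than in WT gastrocnemius, and *Sln*, *Ucp2*, *Gadd45a* and *Mfsd7a* higher, with no overlap between the genotypes in that muscle. No overlap held for 28.1% of all genes tested there.

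Further genes with a more negative effect in the gastrocnemius were highest in WT gastrocnemius and lower in the mutant. *Calm3*, 1 of 3 genes for calmodulin, the calcium sensor, stood at 404 to 468 CPM in WT and 210 to 233 CPM in *Mtm1*-/y gastrocnemius, against 114 to 141 and 113 to 124 CPM in the diaphragm. Its difference of -0.85 ± 0.12 passed the adjusted p (0.0149) and not the size threshold. *Slc2a3*, which encodes the glucose transporter GLUT3, stood at 10.2 to 16.9 CPM in WT and 1.45 to 3.14 CPM in *Mtm1*-/y gastrocnemius. In the diaphragm it stood at 2.73 to 3.70 and 2.14 to 2.54 CPM, and its difference was -2.09 ± 0.33 (adjusted p = 0.0288). *Cdh4*, which encodes R-cadherin, stood at 36.2 to 63.7 CPM in WT and 5.24 to 10.1 CPM in *Mtm1*-/y gastrocnemius, and at 0.534 to 1.36 CPM in all 7 diaphragm libraries. The difference for *Cdh4* was -2.59 ± 0.44 (adjusted p = 0.0315). *Fgfbp1*, a carrier protein for fibroblast growth factors, stood at 10.8 to 14.8 CPM in WT and 1.1 to 2.34 CPM in *Mtm1*-/y gastrocnemius. In the diaphragm it had 0 to 13 reads per library, so the difference of -4.26 ± 0.72 (adjusted p = 0.0315) sets a fall from a high level beside a few reads.

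Smaller differences of this direction passed in genes of varied function. *Actr3b*, which encodes an actin-related protein of the ARP2/3 complex, had a difference of -1.88 ± 0.31, and *Cdk19*, a kinase of the Mediator complex, one of -1.27 ± 0.20. *Polk*, a translesion DNA polymerase, had a difference of -1.32 ± 0.23, and *Golm1*, a Golgi membrane protein, one of -1.30 ± 0.25. All 4 fell in the gastrocnemius (log2 fold changes of -2.13, -1.45, -1.51 and -1.07) and had effects between -0.25 and 0.23 in the diaphragm that did not pass. Exons of *Golm1* and *Cdk19* overlap those of other genes on the opposite strand (*Naa35* and *Cdk19os*). Each of these 7 genes other than *Calm3* (*Slc2a3*, *Cdh4*, *Fgfbp1*, *Actr3b*, *Cdk19*, *Polk* and *Golm1*) passed in 3 to 7 of the 15 fits with 1 library left out, with adjusted p of up to 0.143. None of the 7 passed without WT gastrocnemius 2, *Mtm1*-/y gastrocnemius 1, WT diaphragm 1, 2 or 4, or *Mtm1*-/y diaphragm 4.

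Genes with a more positive effect in the gastrocnemius included *Sln*, *Ucp2* and *Gadd45a*. *Sln* (chr9:53850164-53854560, plus strand) encodes sarcolipin, a small inhibitor of the sarcoplasmic reticulum calcium pump. It stood at 20.6, 14.9, 5.33 and 16.0 CPM in WT gastrocnemius and at 477, 231, 135 and 363 CPM in *Mtm1*-/y gastrocnemius. In the diaphragm it stood at 268, 308, 408 and 313 CPM in WT and at 300, 577 and 617 CPM in *Mtm1*-/y libraries. The mutant gastrocnemius thus overlapped the range of WT diaphragm, whereas WT gastrocnemius lay below every other library. The log2 fold change was 4.41 ± 0.47 in the gastrocnemius and 0.62 ± 0.44 in the diaphragm, a difference of 3.79 ± 0.63 (adjusted p = 0.0315). *Ucp2* (chr7:100493337-100502020, plus strand), a mitochondrial inner-membrane carrier, stood at 42.6, 28.4, 33.6 and 41.1 CPM in WT and 116, 103, 92.0 and 143 CPM in *Mtm1*-/y gastrocnemius. Its diaphragm levels were 141 to 198 CPM in WT and 128 to 192 CPM in *Mtm1*-/y libraries, and its difference was 1.74 ± 0.26 (adjusted p = 0.0248). *Gadd45a*, a growth arrest gene known to be induced by denervation, stood at 12.7 to 18.8 CPM in WT and 51.9 to 112 CPM in *Mtm1*-/y gastrocnemius, and at 6.6 to 12.9 and 7.60 to 13.3 CPM in the diaphragm. The difference for *Gadd45a* was 2.16 ± 0.40 (adjusted p = 0.0467).

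*Mfsd7a*, a member of the major facilitator family of transporters, passed in all 15 fits with 1 library left out. It stood at 4.56 to 5.28 CPM in WT and 14.1 to 22.3 CPM in *Mtm1*-/y gastrocnemius, and at 7.17 to 9.51 and 7.38 to 10.6 CPM in the diaphragm. Its difference was 1.99 ± 0.23 (adjusted p = 0.00445, and 0.000988 to 0.0198 with 1 library left out), with an effect of 0.00 in the diaphragm. *Plekhh1*, a pleckstrin homology protein, and *Il20rb*, a receptor chain for interleukins of the IL-20 family, rose in the gastrocnemius by log2 fold changes of 2.38 and 1.76 and had differences of 1.75 ± 0.29 and 1.84 ± 0.32. *Gdf5*, a BMP-family ligand that limits muscle loss after denervation, stood at 0.165 to 0.251 CPM in WT and 2.42 to 13.4 CPM in *Mtm1*-/y gastrocnemius, and at 0.682 to 1.35 and 1.59 to 2.04 CPM in the diaphragm. The difference for *Gdf5* was 4.29 ± 0.66 (adjusted p = 0.0276). Of 15 fits with 1 library left out, *Ucp2* passed in 8, *Gdf5* in 7, *Sln* and *Plekhh1* in 4 each, and *Gadd45a* and *Il20rb* in 3 each. None of these 6 passed without WT gastrocnemius 2, WT diaphragm 4 or *Mtm1*-/y diaphragm 1 or 4, with adjusted p of up to 0.143, while the differences themselves kept their sign. Exons of *Gdf5*, *Gadd45a*, *Ucp2* and *Plekhh1* overlap those of other genes on the opposite strand (*Gm15557*, *E230016M11Rik*, *Dnajb13* and *Pigh*).

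The effects of *Cxcl10* and *Msln* were also more positive in the gastrocnemius. *Cxcl10*, a chemokine that attracts T cells, had 3, 1, 1 and 1 reads in WT gastrocnemius and 218, 60, 123 and 99 in *Mtm1*-/y gastrocnemius, which is 2.02 to 5.82 CPM. In the diaphragm it stood at 0.273 to 1.03 CPM in WT and 1.39 to 1.81 CPM in *Mtm1*-/y libraries. Genotypes had no overlap in either muscle (28.1% of all genes tested in the gastrocnemius and 10.2% in the diaphragm). Its difference was 4.56 ± 0.69 (adjusted p = 0.0248), and it was the 1 chemokine or receptor of 15 that passed by edgeR (DESeq2 also called *Ccl6*). *Msln*, which encodes mesothelin, a surface marker of mesothelium, stood at 0.0824 to 0.373 CPM in WT and 3.02 to 11.9 CPM in *Mtm1*-/y gastrocnemius, against 42.8 to 107 and 85.9 to 102 CPM in the diaphragm. The difference for *Msln* was 4.17 ± 0.66 (adjusted p = 0.0286). Beside it, the 8 mesothelial markers summed to 0.741 to 1.49 CPM in WT and 4.39 to 13.04 CPM in *Mtm1*-/y gastrocnemius, and to 197 to 404 CPM in the diaphragm, and *Msln* was the 1 of 8 that passed. *Msln* made up most of the sum in the mutant, and the other 7 markers summed to 0.632 to 1.12 CPM in WT and 1.01 to 4.81 CPM in *Mtm1*-/y gastrocnemius, where the genotypes overlapped. The 15 macrophage markers summed to 69.1 to 120.5 CPM in WT and 207 to 255 CPM in *Mtm1*-/y gastrocnemius, and to 374 to 962 CPM in the diaphragm, where the genotypes overlapped. Their part in the differences of *Cxcl10*, *Msln* or *Retnla* was not tested. *Cxcl10* and *Msln* passed in 9 and 6 of the 15 fits with 1 library left out, and neither passed without WT gastrocnemius 2, 3 or 4, WT diaphragm 4 or *Mtm1*-/y diaphragm 1 or 4 (adjusted p of up to 0.0714).

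Opposite genotype effects were measured for *Retnla* and *Hipk2*, each at an unadjusted p under 0.05 in both muscles. *Retnla*, a secreted product of alternatively activated macrophages, stood at 5.52 to 11.5 CPM in WT and 16.2 to 23.5 CPM in *Mtm1*-/y gastrocnemius, and at 18.3 to 36.3 and 11.4 to 16.9 CPM in the diaphragm. It rose in the gastrocnemius (1.29, adjusted p = 0.00423), and its diaphragm effect of -0.89 did not pass (adjusted p = 0.128), with a difference of 2.18 ± 0.37 (adjusted p = 0.0315). *Hipk2*, a nuclear kinase that acts on p53, stood at 18.9 to 28.8 CPM in WT and 14.1 to 18 CPM in *Mtm1*-/y gastrocnemius, and at 4.04 to 8.29 and 9.12 to 12.4 CPM in the diaphragm. It fell in the gastrocnemius by 0.65 on the log2 scale (adjusted p = 0.0395), its diaphragm effect was 0.94 (adjusted p = 0.0515), and its difference was -1.59 ± 0.29 (adjusted p = 0.0467). Genotypes did not overlap in either muscle for either gene, which held for 28.1% of all genes tested in the gastrocnemius and 10.2% in the diaphragm. *Retnla* passed in 3 and *Hipk2* in 1 of the 15 fits with 1 library left out, and WT diaphragm 3 was the library whose absence kept *Hipk2* (adjusted p = 0.00817), while the highest adjusted p were 0.108 and 0.118.

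A further set was picked out after its values were seen. Of the 41 genes, 10 carry names of predicted genes or pseudogenes, and in several of these the low group was *Mtm1*-/y diaphragm. *Gm11512*, a processed pseudogene at chr11:90538484-90539146, had 44, 31, 33 and 48 reads in WT and 40, 27, 23 and 26 in *Mtm1*-/y gastrocnemius, 52, 71, 63 and 72 in WT diaphragm, and 5, 2 and 4 in *Mtm1*-/y diaphragm. Its gastrocnemius effect of -0.65 also passed (adjusted p = 0.0328). Its diaphragm effect was -4.20 ± 0.27 and its difference 3.54 ± 0.32 (adjusted p = 0.000798), the smallest adjusted p of the comparison. *Gm43531* had 12 to 18 reads in each WT and 1, 0 and 1 in the *Mtm1*-/y diaphragm libraries, with 3 to 7 in every gastrocnemius library. *Actbl2*, an actin-like gene at chr13:111255013-111257749, had 4 to 7 reads in WT and 17 to 111 in *Mtm1*-/y gastrocnemius, 9 to 20 in WT diaphragm, and 0 in all 3 *Mtm1*-/y diaphragm libraries. Against the 3 reads over the group that a count of 0 allows, the pooled level of *Actbl2* in WT diaphragm stood 13.3-fold higher. This figure leaves out the spread among the WT libraries and is no lower bound. The adjusted p of *Actbl2* for the difference was 0.0315. In the gastrocnemius it rose (adjusted p = 0.0126), with the highest value, 3.42 CPM, in *Mtm1*-/y replicate 3 and the others at 0.568 to 0.614 CPM. *Actbl2* lost the call in 10 of the 15 fits with 1 library left out, among them every fit without a WT gastrocnemius library (adjusted p of up to 0.0775). Processed pseudogenes and actin genes have near copies elsewhere in the genome. The study counted uniquely aligned reads only, and whether each read was placed on the right copy was not tested.

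Members of the gene lists were counted with edgeR unless another tool is named. Over all genes tested, 8.54% rose and 8.97% fell in the gastrocnemius, and 0.868% rose and 0.44% fell in the diaphragm. Every list count below is to be read beside these shares. DESeq2 placed 0.961% of all genes above and 1.35% below 0 at an adjusted p of 0.05, and limma voom with sample weights placed 2.38% above and 2.11% below, so their calls are given beside a count of 0 where they made any. Members named for these calls were chosen after their values were seen.

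Among synaptic genes no member of the 5 acetylcholine receptor subunits passed the test of the difference, although 4 rose in the gastrocnemius (background 8.54% up and 8.97% down) and 1, *Chrng*, in the diaphragm (0.868% up and 0.44% down). The receptor of adult muscle holds alpha, beta, delta and epsilon subunits, the fetal receptor has gamma in place of epsilon, and denervated fibres express the fetal form again. *Chrng*, the gamma subunit, went from 0.494 to 0.933 CPM in WT to 2.25 to 10.6 CPM in *Mtm1*-/y gastrocnemius, and from 0.236 to 0.423 to 1.29 to 4.70 CPM in the diaphragm. Its log2 fold changes of 2.76 ± 0.52 and 2.93 ± 0.56 differed by -0.18, with a 95% interval of -1.73 to 1.38. *Chrna1*, the alpha subunit, stood at 29.6 to 47.9 CPM in WT and 98.6 to 186 CPM in *Mtm1*-/y gastrocnemius, and at 10.4 to 24 in WT and 44.1, 16.6 and 37.2 CPM in *Mtm1*-/y diaphragm replicates 1, 2 and 4. The 1 *Mtm1*-/y diaphragm library that overlapped WT for *Chrna1* was replicate 2, and the difference was 0.76 (-0.24 to 1.77). *Chrnb1* and *Chrnd* had differences of 0.45 and 0.98, and *Chrne*, the epsilon subunit, one of 0.68 (0.03 to 1.34, adjusted p = 0.369). The median effect over the subunits was 1.76 in the gastrocnemius and 0.993 in the diaphragm.

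The regulatory sequence of these subunits is shown because 4 of the 5 rose in the gastrocnemius. Promoters of receptor genes carry E-boxes, sites for the myogenic bHLH factors, and windows of 300 bases (250 before to 50 after the RefSeq start, GRCm38.p6) were searched for the E-box letters CAGCTG, which read the same on both strands. Windows were found for 5 of the 6 genes looked for, all but *Chrnd*. *Chrna1* and *Chrng* held the letters 2 times and *Chrne* once, *Chrnb1* and *Myog* did not, and 16.3% of all 32851 windows held them at least once. The 3 windows are printed 5′ to 3′ on the gene's strand, with CAGCTG in capitals. Other forms of the E-box were not searched for and stay in lower case.
Chrna1 (chr2:73580289-73580588, minus strand): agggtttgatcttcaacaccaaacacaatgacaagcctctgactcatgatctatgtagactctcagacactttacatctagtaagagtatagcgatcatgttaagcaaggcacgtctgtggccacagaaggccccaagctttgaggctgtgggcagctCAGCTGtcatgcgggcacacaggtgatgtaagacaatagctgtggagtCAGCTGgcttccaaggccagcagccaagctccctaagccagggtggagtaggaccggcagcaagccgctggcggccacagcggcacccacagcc
Chrng (chr1:87205561-87205860, plus strand): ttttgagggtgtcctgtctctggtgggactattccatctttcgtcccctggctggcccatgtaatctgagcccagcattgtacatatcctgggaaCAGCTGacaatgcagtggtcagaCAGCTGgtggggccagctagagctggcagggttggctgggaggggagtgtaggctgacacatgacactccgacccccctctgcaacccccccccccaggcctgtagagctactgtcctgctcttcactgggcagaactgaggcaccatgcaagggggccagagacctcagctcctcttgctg
Chrne (chr11:70619145-70619444, minus strand): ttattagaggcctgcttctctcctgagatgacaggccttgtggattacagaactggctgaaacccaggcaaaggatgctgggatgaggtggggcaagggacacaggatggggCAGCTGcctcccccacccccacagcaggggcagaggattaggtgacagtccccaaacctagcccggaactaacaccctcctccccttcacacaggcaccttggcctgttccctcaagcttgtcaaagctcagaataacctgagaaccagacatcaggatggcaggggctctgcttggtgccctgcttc
A match describes the letters only. *Chrng* and *Chrna1*, with 2 matches each, and *Chrnb1*, with none, all rose in the gastrocnemius, and *Chrne* did not pass there (0.52, adjusted p = 0.097).

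Of 16 denervation-responsive genes, 12 rose in the gastrocnemius and 5 in the diaphragm, none fell, and *Sln* and *Gadd45a* were the 2 that differed between the muscles. DESeq2 and voom called both of these too, with *Mybph*, a myosin-binding protein, below 0, and DESeq2 also called *Cdkn1a* and *Fbxo32* above 0. *Myog*, the bHLH factor myogenin, rose in both, by 1.85 in the gastrocnemius and 2.32 in the diaphragm on the log2 scale, with a difference of -0.47 (-1.71 to 0.77). *Runx1*, a transcription factor induced in denervated fibres, stood at 1.54 to 3.11 CPM in WT and 16.3 to 50.6 CPM in *Mtm1*-/y gastrocnemius. In the diaphragm it stood at 3.33 to 4.84 CPM in WT and at 27.9, 7.26 and 21.8 CPM in *Mtm1*-/y replicates 1, 2 and 4, again with replicate 2 nearest to WT, and its difference of 1.40 did not pass (adjusted p = 0.338). The median effect of the list was 1.80 in the gastrocnemius and 0.686 in the diaphragm. None of the 8 organizers of the junction differed, and *Agrn*, the nerve-derived organizer agrin, and *Colq*, the collagen tail of acetylcholinesterase, had differences of 0.02 and 0.55.

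For sarcomere genes edgeR called no difference between the muscles. Of 16 fast-fibre genes, 12 fell and 1 rose in the gastrocnemius and none passed in the diaphragm, with medians of -0.767 and -0.266. The differences of *Myl1* and *Mylpf*, myosin light chains of fast fibres, were called by DESeq2 (-1.26 and -0.96) and by voom (-1.29 and -1.05), and that of *Myh1*, the IIx myosin, by DESeq2 alone (1.16). *Atp2a1*, the calcium pump of fast fibres, and *Myh4*, the IIb myosin heavy chain, had differences of -0.34 (-0.94 to 0.26) and -0.02 (-1.61 to 1.57). Slow-fibre genes had medians of -0.256 and 0.445, and *Atp2a2* and *Myh7*, the slow pump and myosin, had differences of -0.86 and -0.87 that did not pass. All 6 developmental sarcomere genes had a difference below 0, with a median effect of 1.35 in the gastrocnemius and 2.30 in the diaphragm. *Actc1*, the cardiac alpha-actin of fetal muscle, stood at 6900 to 7760 CPM in WT and 399 to 2320 CPM in *Mtm1*-/y gastrocnemius, and at 105 to 449 and 373 to 531 CPM in the diaphragm. It fell in the gastrocnemius by 2.18 on the log2 scale (adjusted p = 0.00898), and the difference of -2.87 (-4.36 to -1.37) had an adjusted p of 0.118 by edgeR, 0.00174 by DESeq2 and 0.0294 by voom. *Myh3*, the embryonic myosin, stood at 8.02 to 10.8 CPM in WT and 66.0 to 292 CPM in *Mtm1*-/y gastrocnemius, and at 1.58 to 3.71 in WT and 6.02, 56.5 and 228 CPM in *Mtm1*-/y diaphragm. Its rise passed in both muscles, and its difference of -1.34 had an interval of -3.74 to 1.05. Of 17 stretch-responsive and small heat shock genes, 12 rose in the gastrocnemius and 5 in the diaphragm, with medians of 1.34 and 1.2. *Xirp2*, an actin-binding protein of the myotendinous junction, and *Des*, desmin, had differences of -1.27 (adjusted p = 0.265, and 0.036 by voom) and -0.24. The keratin genes *Krt8* and *Krt18* on this list were called above 0 by DESeq2 and by voom and not by edgeR.

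Genes of the triad, the site of excitation-contraction coupling, had a median effect of -0.371 in the gastrocnemius and 0.126 in the diaphragm over 25 members, 8 of which fell and 1 of which rose in the gastrocnemius, and *Sln* was the 1 member that differed. *Sypl2*, mitsugumin 29 of the triad membrane, was called below 0 by DESeq2 and by voom. Of 26 phosphoinositide and membrane remodelling genes edgeR called none, DESeq2 called *Rab7* and voom called *Eea1* and *Mtmr6*, all below 0, and the medians of the list were -0.02 in the gastrocnemius and 0.00 in the diaphragm. *Bin1*, the amphiphysin that shapes T-tubules, and *Dnm2*, the membrane-cutting GTPase dynamin 2, had differences of -0.25 (-0.71 to 0.22) and 0.05 (-0.20 to 0.29). *Rab7*, a late-endosomal GTPase, fell in the gastrocnemius by 0.52 on the log2 scale (adjusted p = 0.00102) and had a difference of -0.43 (-0.68 to -0.18, adjusted p = 0.155). No member of the 15 myogenic regulators passed by edgeR or DESeq2, and *Mef2c* did by voom, with *Mef2c* and *Mef2d* at -0.81 and -0.22.

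For degradation and signalling lists edgeR called no difference. Of 14 muscle atrophy genes DESeq2 called 1, *Fbxo32*, and voom none. *Fbxo32*, the ubiquitin ligase atrogin-1, stood at 94.5 to 223 CPM in WT and 312 to 431 CPM in *Mtm1*-/y gastrocnemius, against 157 to 375 and 212 to 298 CPM in the diaphragm. *Fbxo32* and *Trim63*, which encodes the ligase MuRF1, rose in the gastrocnemius (1.19 and 0.88), and their differences of 1.37 (0.51 to 2.22) and 0.73 had adjusted p of 0.188 and 0.466 by edgeR. Autophagy and proteasome genes had median differences of 0.05 and -0.04 over 19 and 31 members, with *Lamp1* and *Sqstm1* at -0.01 and 0.05 and *Psmc3* and *Psmd2* at -0.04 and -0.02. *Ctsl*, the lysosomal protease cathepsin L, was called above 0 by DESeq2 and by voom, and *Psma3*, a proteasome subunit, below 0 by voom. Glucocorticoid-responsive genes (15), clock genes (17) and IGF genes (13) had median differences of 0.20, 0.19 and -0.11, with *Pdk4* at 0.40, *Tsc22d3* at 0.08, *Tef* at 0.19, *Nr1d1* at 0.70, *Igfbp5* at -0.62 and *Igfbp4* at 0.69. Of 16 myostatin, follistatin and TGF-beta genes edgeR and DESeq2 called none and voom called *Smad7*, an inhibitor of this signalling, above 0, with *Smad3* and *Tgfbr2* at -0.67 and 0.04.

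Energy metabolism and ribosomal lists had no member that passed in the diaphragm or for the difference by edgeR. DESeq2 called *Gbe1*, the glycogen branching enzyme, above 0 and voom called *Pgam2* and *Phka1*, a phosphoglycerate mutase and a phosphorylase kinase subunit, below 0, all on the glycolysis and glycogen list. Of 20 glycolysis and glycogen enzymes, 13 fell and 2 rose in the gastrocnemius, with a median of -0.594 against -0.157 in the diaphragm. *Pygm*, muscle glycogen phosphorylase, and *Aldoa*, aldolase A, fell there by 0.93 and 0.63 on the log2 scale and had differences of -0.49 (-1.02 to 0.04) and -0.37 (-1.0 to 0.26). In the gastrocnemius 14 of 17 tricarboxylic acid cycle enzymes, 17 of 36 complex I subunits and 16 of 40 subunits of complexes II to V fell and none rose. Median differences of these 3 lists were -0.25, -0.10 and -0.12, with *Ogdh* at -0.26, *Ndufs1* at -0.35, *Atp5b* at -0.27 and *Atp5a1* at -0.16. Fatty acid genes (21) and mitochondrial regulators (11) had median differences of 0.07 and -0.11, with *Lpl* at 0.09, *Acsl1* at 0.15, *Perm1* at -0.08 and *Sod2* at -0.27. Of 74 ribosomal protein genes tested none differed, with a median of 0.15 and *Rpl4* and *Rpl3l* at -0.11 and 0.07.

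Collagen chains, the structural proteins of the matrix, had a median effect of 0.328 in the gastrocnemius and 0.819 in the diaphragm, with 3 of 16 rising in each and none differing by edgeR or DESeq2, while voom called *Col15a1* below 0. Beside them, the 6 fibroblast markers summed to 208 to 272 CPM in WT and 343 to 410 CPM in *Mtm1*-/y gastrocnemius, and to 283 to 508 and 496 to 825 CPM in the diaphragm. The 6 tendon markers summed to 171 to 954 and 374 to 1146 CPM in the gastrocnemius, and to 69.0 to 240 and 235 to 780 CPM in the diaphragm. Genotypes overlapped in both muscles for these sums other than fibroblast markers in the gastrocnemius, and their part in the matrix values was not tested. *Col3a1*, a fibrillar collagen of loose matrix, rose in the diaphragm (1.29, adjusted p = 0.044) and had a gastrocnemius effect of 0.71 (adjusted p = 0.0798), and the difference of -0.58 (-1.41 to 0.26) did not pass. *Col1a2* had a difference of -0.97 with an interval of -2.75 to 0.81. Of 18 matricellular proteins and matrix enzymes, 7 rose in the gastrocnemius and 6 in the diaphragm, and *Sparc* and *Dcn* had differences of -0.45 and -0.24. *Cilp*, a matrix protein of cartilage and fibrosis, stood at 30.6 to 69.5 CPM in WT and 386 to 673 CPM in *Mtm1*-/y gastrocnemius, and at 41.9 to 109 in WT and 425, 125 and 375 CPM in *Mtm1*-/y diaphragm replicates 1, 2 and 4. Its difference of 1.25 did not pass (adjusted p = 0.398). Integrin and dystrophin complex lists had median differences of -0.14 and -0.29, with no call by edgeR, 1 integrin list member (*Tln2*) called below 0 by both other tools and 1 dystrophin complex member by voom, and with *Itgb1* at -0.14, *Itgb1bp2* at -0.20 and *Dag1* at -0.40.

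MHC class II genes had the most positive median difference of the 36 pathway lists, 1.35. All 7 MHC class II genes, which present antigen on macrophages, dendritic cells and B cells, rose in the gastrocnemius and none passed in the diaphragm, with medians of 2.45 and 0.976. *Cd74*, the invariant chain, stood at 15.4 to 21.2 CPM in WT and 78.4 to 115 CPM in *Mtm1*-/y gastrocnemius, and at 61.1 to 141 in WT and 162 to 235 CPM in *Mtm1*-/y diaphragm. The genotypes did not overlap in either muscle (28.1% of all genes tested in the gastrocnemius and 10.2% in the diaphragm). Its difference of 1.48 (0.73 to 2.22) had an adjusted p of 0.109, and that of *H2-Aa*, a class II alpha chain, was 1.39 (adjusted p = 0.154). All 7 had a difference above 0, and DESeq2 and limma voom with sample weights each placed 5 of the 7 past an adjusted p of 0.05, whereas edgeR placed none and had an unadjusted p under 0.05 for all 7. Beside them, the macrophage markers moved as given above, while of 9 B cell markers 1, *Ighm*, fell in the gastrocnemius and the other 8 summed to 1.18 to 2.19 CPM in WT and 1.16 to 2 CPM in *Mtm1*-/y libraries there. In the diaphragm these 8 summed to 13.6 to 129 CPM in WT and 16.7 to 43.9 CPM in *Mtm1*-/y libraries. Their part in these values was not tested. *Ighm*, the IgM heavy chain, fell in the gastrocnemius by 3.49 on the log2 scale (adjusted p = 0.00416), and its difference of -2.24 did not pass (adjusted p = 0.336).

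Of 15 chemokines and receptors, 10 rose in the gastrocnemius and 2 in the diaphragm, with medians of 1.63 and 0.654. *Cx3cl1*, the chemokine fractalkine, rose in both by 3.33 and 2.77 on the log2 scale and had a difference of 0.57 (-0.41 to 1.54). Of 14 NF-kappaB and TNF receptor genes tested, 9 rose in the gastrocnemius and 3 in the diaphragm, and *Eda2r*, a TNF receptor for ectodysplasin A2, rose in both (3.46 and 2.17) with a difference of 1.28 (adjusted p = 0.269). *Nfkbia* had a difference of -0.03. No member of this list passed the difference by edgeR, and DESeq2 and voom each called *Nfkb2* and *Nfkbie* above 0. Interferon-responsive and MHC class I genes had medians of 0.04 and -0.34, with *B2m* and *H2-K1* at differences of 0.61 and 0.75. In the diaphragm this list summed to 1197, 1042, 428 and 1195 CPM in WT replicates 1 to 4. In *Mtm1*-/y replicates 1, 2 and 4 it summed to 557, 1240 and 383 CPM. Within each genotype the highest and lowest sums lay in the same diaphragm libraries as those of the hepatocyte markers, whose part was not tested. The integrated stress response list had a median difference of 0.47 with *Hspa5* at 0.51 and *Atf4* at -0.13, and voom called 1 member, *Gdf15*, above 0. The p53 genes had 1 member of 12 that differed by edgeR, *Gadd45a*, with *Cdkn1a* added by DESeq2, and none of 19 mitotic genes differed, with *Mcm7* and *Mcm3* at 0.11 and 0.04.

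**Figure D5:**
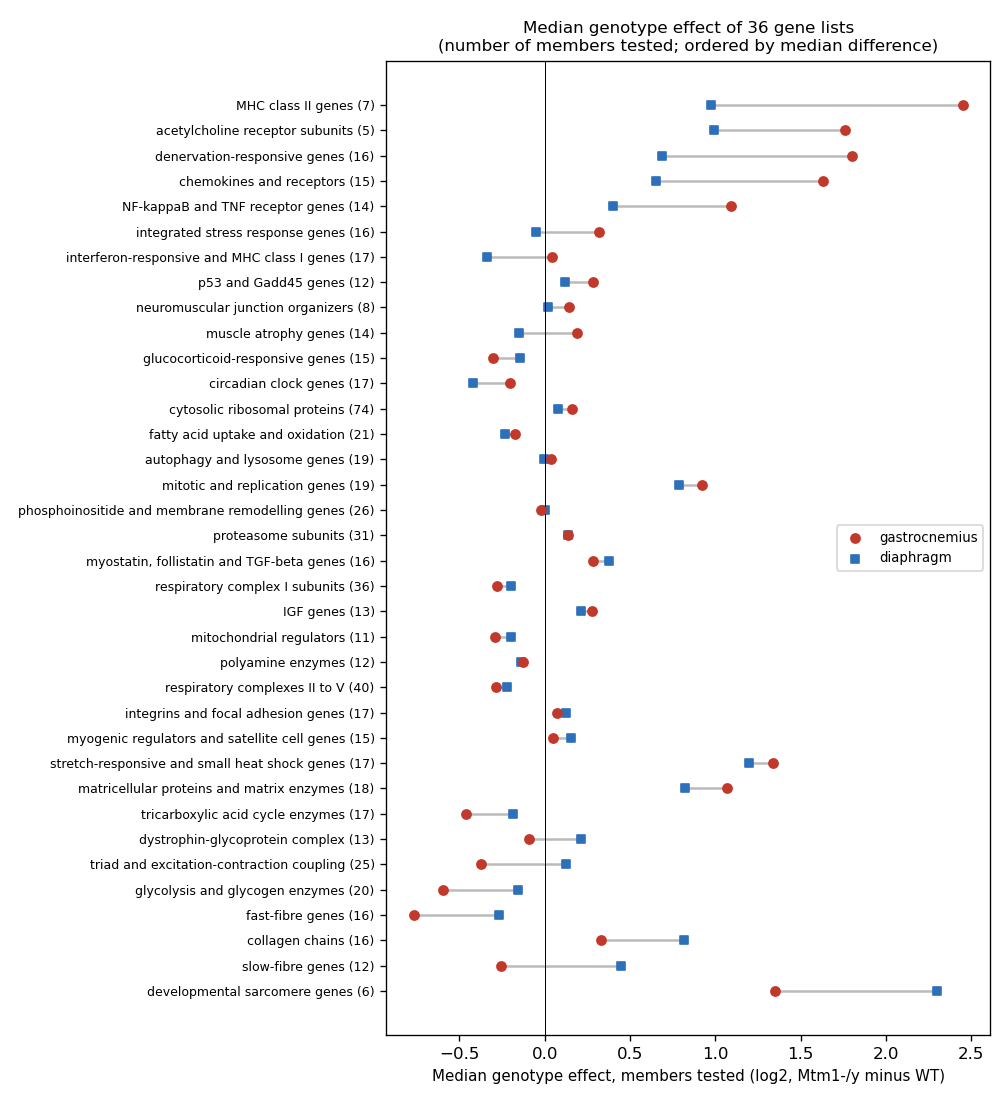
Median genotype effect (x axis, log2) of 36 gene lists in the gastrocnemius (red circles) and the diaphragm (blue squares), with the number of members tested, ordered by the median difference. MHC class II genes lie at 2.45 and 0.976 and developmental sarcomere genes at 1.35 and 2.30.

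Markers of other cell types were read in the same way, and *Msln* was the 1 marker on 18 lists that differed by edgeR. DESeq2 called 4 white adipocyte, 3 macrophage, 2 mesothelial and 2 skeletal muscle fibre markers, and voom called 2, 2, 1 and 2, and of these calls *Acta1* by both tools and *Ttn* by voom were below 0. White adipocyte markers summed to 264 to 408 CPM in WT and 398 to 594 CPM in *Mtm1*-/y gastrocnemius, and to 709.5 to 2984 and 568 to 1203 CPM in the diaphragm. All 12 had a difference above 0, with a median of 2.33, among them *Fabp4* at 1.08 (adjusted p = 0.288) and *Cfd* at 2.45 (adjusted p = 0.316). Of 15 macrophage markers 13 rose in the gastrocnemius and none in the diaphragm, and *Lyz2* and *Csf1r* had differences of 1.85 and 0.79 that did not pass. Of 21 hepatocyte markers 20 had a difference below 0, and those of *Alb* and *Ahsg* were -1.33 (adjusted p = 0.795) and -1.79 (adjusted p = 0.704). T and NK cell markers lay under 1 CPM in every gastrocnemius library and reached 56.5 CPM in WT diaphragm 2, against 2.27 to 4.07 CPM in the other 6 diaphragm libraries.

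Like effects in both muscles were described by the interval of the difference, since a p that misses the threshold does not show that effects are equal. Of 239 genes called in the gastrocnemius, moving the same way in the diaphragm at an unadjusted p under 0.05 and not passing the difference, those with the tightest bounds were *Plp2*, *Mtm1*, *S1pr2*, *Maged2*, *Relb* and *Rhoc*. *Plp2*, a membrane proteolipid, had effects of 1.09 and 0.98 and an interval of -0.38 to 0.59. *S1pr2*, a receptor for sphingosine 1-phosphate, had 1.03 and 0.92 (-0.41 to 0.61), and *Maged2*, a MAGE-family protein, 1.14 and 1.05 (-0.44 to 0.62). *Relb*, an NF-kappaB subunit, had 1.04 and 1.00 (-0.58 to 0.64), and *Rhoc*, a small GTPase, 1.1 and 1.01 (-0.48 to 0.66). Intervals were wider for *Mstn*, *Arrdc2*, *Fst* and *Tiam2*, which the study names. *Mstn*, the growth inhibitor myostatin, fell in both muscles, by 1.73 and 1.72 on the log2 scale, with a difference of -0.01 (-0.71 to 0.68). *Arrdc2*, an arrestin-domain protein, had effects of -1.46 and -1.5 (difference 0.04, -1.0 to 1.08), of which the first passed. *Fst*, follistatin, which binds myostatin, rose in both by 1.85 and 1.04, with a difference of 0.82 (0.14 to 1.5, adjusted p = 0.317), and *Tiam2*, a Rac exchange factor, rose in both by 2.15 and 1.43, with a difference of 0.71 (-0.25 to 1.68).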

How the data were processed

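RNA of gastrocnemius and diaphragm was sequenced by the authors as single reads from stranded poly(A) libraries. The deposited counts per gene, made by the authors, are whole numbers without normalization: demultiplexing with bcl2fastq 2.17.1.14, trimming with cutadapt 1.10, alignment to mm10 with STAR 2.5.3a and counting with htseq-count (HTSeq 0.6.1p1) on Ensembl genes. Only uniquely aligned reads that fell to 1 gene were counted. Tools and versions are those in the submitters' processing notes, and the study's methods give all of them but bcl2fastq.

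From these counts, the 15 gastrocnemius and diaphragm libraries were fitted in R 4.3.3 with edgeR 4.0.16 (filterByExpr with a minimum count of 10, TMM, 1 coefficient per group, quasi-likelihood F test). P-values were adjusted by Benjamini-Hochberg over 17509 of 36103 genes, those that passed the filter. All adjusted p are from this test unless another tool is named. Calls needed an adjusted p below 0.05 and a log2 difference larger than 1 in size, and list members were counted at the adjusted p alone. Errors are SE and intervals are 95% intervals of the fitted difference. Positions are from the GENCODE annotation of mm10 and promoters from RefSeq. Marker sums are CPM on the same TMM scale. DESeq2 1.42.0 and limma 3.58.1 served as alternatives, and each library was left out in turn. The fit was also run on simulated counts, drawn independently for each gene and library. Such counts hold no varying liver content and no library unlike its group, so they do not bear on the effect of either.

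The comparison, its members and the gene lists were chosen with earlier results of these data known. Named genes were up to 10 called genes of each direction with the largest difference and at least 5 CPM in a group, leaving out predicted, pseudogene and liver-enriched names, up to 4 passing members of each list or its 2 most abundant, genes the study names, genes with opposite effects, and the genes with the tightest like effects. *Runx1*, *Cx3cl1* and *Actbl2* were added by name to the genes of the study. Some further genes are said to be chosen after their values were seen. Others, such as *Calm3*, *Amd2*, *Odc1*, *Sms*, *Chrnd*, *Chrne*, *Chrng* and *Myog*, also fall outside this rule. A few genes that this rule names are not reported here.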

Additional observations from a re-analysis of the deposited data

Results flagged for a closer look

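Of 132 groups of 4 libraries examined for a library standing apart (Dixon's test at the 95% level), 8 had one, and chance gives about 1 in 20. These were *Mfsd7a* at 7.17 CPM in WT diaphragm 1 (lowest of its group), *Cxcl10* at 0.0932 CPM in WT gastrocnemius 1, *Mtm1* at 22.9 CPM in WT gastrocnemius 3, *Cx3cl1* at 5.45 CPM in WT diaphragm 3, *Actbl2* at 3.42 CPM in *Mtm1*-/y gastrocnemius 3 and *Rhoc* at 91.2 CPM in *Mtm1*-/y gastrocnemius 1 (highest of their groups). The summed T and NK cell markers were highest at 0.919 CPM in *Mtm1*-/y gastrocnemius 3 and at 56.5 CPM in WT diaphragm 2.

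The genotype effect differed between the muscles, by the test of the difference itself, for 21 named genes. It was more negative in the gastrocnemius for *Fgfbp1* (-4.26), *Amd1* (-2.70), *Cdh4* (-2.59), *Slc2a3* (-2.09), *Actr3b* (-1.88), *Smox* (-1.76), *Hipk2* (-1.59), *Polk* (-1.32), *Golm1* (-1.30) and *Cdk19* (-1.27), on the log2 scale. It was more positive there for *Ucp2* (1.74), *Plekhh1* (1.75), *Il20rb* (1.84), *Mfsd7a* (1.99), *Gadd45a* (2.16), *Retnla* (2.18), *Sln* (3.79), *Msln* (4.17), *Gdf5* (4.29), *Cxcl10* (4.56) and *Actbl2*, whose fitted 9.35 rests on a group without reads and is no bound.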

How the results depend on the processing

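Over 66 genes named or called and the alternatives run, 1059 results kept their sign and their side of the threshold and 617 were no longer past it; the cause was not tested. In the other 40 the sign changed, past the threshold in neither fit, for 10 genes (*Arrdc2*, *Dnm2*, *Myh3*, *Mstn*, *Itgb1*, *Plp2*, *S1pr2*, *Maged2*, *Relb* and *Rhoc*), and *Myh3*, at -1.34, reached 0.98. The median difference changed sign in at least 1 alternative for 15 of 53 lists, the polyamine, matricellular, stretch-responsive, hepatocyte, fibroblast and tendon lists among them. The 41 genes called (26 above and 15 below 0, 21 with opposite effects) became 26 (16 above 0, 11 opposite) without the filter on low counts, where more genes are tested, 204 (132, 72 and 113 opposite) by DESeq2, 401 (299, 102 and 306) by limma voom with sample weights, and 195 (149, 46 and 114) with the hepatocyte covariate. Leaving out 1 library gave 5 to 89 genes, 3 to 61 above and 2 to 28 below 0, and 1 to 59 with opposite effects. Without *Mtm1*-/y diaphragm 2, differences below 0 outnumbered those above (26 against 18).

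Without both *Mtm1*-/y diaphragm 2 and WT diaphragm 3, chosen after seeing the data, 1288 genes were called (1091, 197 and 945). The 172 genes called in the diaphragm became 368 by DESeq2, 1490 by limma voom, 10 to 787 with 1 library left out, 2054 without both libraries and 2 with the diaphragm fitted alone. The 1004 of the gastrocnemius became 1142 by DESeq2, 1147 by voom, 716 to 1114 with 1 library left out and 1255 without both libraries. At the adjusted p alone, 3065 genes passed in the gastrocnemius, and in the diaphragm 152 rose and 77 fell. Deviations from the group mean correlated at -0.178 to 0.25 between same-numbered libraries of the 2 muscles. Between differently numbered libraries of the same genotype they correlated at -0.264 to 0.23. Hepatocyte markers reached high and varied levels in the diaphragm only, which can hide a shared deviation. The correlations therefore cannot show whether libraries came from 1 mouse, and the main fit used no block. With the replicate number as a block, 11 genes were called (6, 5 and 4) and 76 in the diaphragm, and with the block nested within genotype 1 gene, *Amd1*, was called (0 above and 1 below 0). Few libraries per group and the spread of the diaphragm limit the comparison: the median SE of the difference was 0.279.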

Other observations

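Further called genes were picked out after their values were seen. *Clec7a*, which encodes the beta-glucan receptor dectin-1 of myeloid cells, had group means of 0.184 (WT) and 1.68 CPM (*Mtm1*-/y) in the gastrocnemius, and 2.38 and 2.8 CPM in the diaphragm, a difference of 2.93 ± 0.44 (adjusted p = 0.0248). *Trdc*, the constant region of the T cell receptor delta chain, averaged 0.0284 and 2.67 CPM in the gastrocnemius and 1.18 and 0.761 CPM in the diaphragm (adjusted p = 0.0286), from a WT level of few reads. *Hcn2*, a hyperpolarization-activated channel, averaged 2.71 and 1.36 CPM in the gastrocnemius and 1.61 and 3.65 CPM in the diaphragm, so that it fell in the first and rose in the second, with a difference of -2.18 ± 0.36 (adjusted p = 0.0315).

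In heart and liver, the pseudogene *Gm11512* had 28 reads over the WT and 17 over the *Mtm1*-/y heart libraries, and 78 and 19 over the WT and *Mtm1*-/y liver libraries. These sums are not scaled to depth, and the liver groups differ in their number of libraries. Other such genes moved either way. *Gm28926* had 5 and 2 reads in heart and 16 and 6 in liver, and *Gm13340* had 1661 and 1725 in heart and 600 and 612 in liver.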
